A study of Homo sapiens with 12 samples.

Results

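The miR-455 mimic was set directly against the miR-455 inhibitor in SW1353 cells. The comparison took 6 of the study's 12 RNA-seq libraries by their labels, 3 from cells given the miR-455 mimic and 3 from cells given the miR-455 inhibitor. The other 6 libraries, 3 with mimic control and 3 with inhibitor control, did not enter this difference, and each gene's level in them is given beside it. SW1353 is an established human line derived from a chondrosarcoma of the humerus and serves as a model of cartilage cells, and all 12 libraries came from this 1 line. Every group received its oligonucleotide at 50 nM with Lipofectamine 3000 and was harvested after 48 hours, and no group was left untransfected. The study text places the mimic and inhibitor on the miR-455-3p strand. The mature microRNA was not measured, so neither the gain with the mimic nor the loss with the inhibitor could be checked in these files. Where the 3 libraries of a group came from, whether from separate transfections or 1 culture, is not stated in these sources, so p-values measure the spread between these libraries.

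MicroRNAs are short RNAs that guide an Argonaute protein to messenger RNAs, mostly through pairing between the seed near the 5′ end of the microRNA and a matching site in the 3′ UTR, and the usual outcome is a lower level or less translation of that transcript. A mimic supplies more of the mature microRNA, whereas an inhibitor is a complementary oligonucleotide that keeps it from its targets. miR-455 is encoded within the cartilage collagen gene COL27A1 and is expressed in cartilage, where transforming growth factor signalling and matrix genes have been studied with it. For a direct target, the textbook direction in this comparison is a lower level with the mimic than with the inhibitor.

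The 2 mature strands of the hairpin are shown because their seeds define the sites used below. They are printed 5′ to 3′ from RefSeq (GRCh38.p14, chromosome 9, plus strand), with the seed, bases 2 to 8, in capitals. The -3p strand lies at 114209487 to 114209507 and the -5p strand at 114209449 to 114209470, both in intron 10 of the 61-exon COL27A1 transcript and outside the exons of all 8 transcripts of that gene in GENCODE 29.
hsa-miR-455-3p: gCAGUCCAugggcauauacac
hsa-miR-455-5p: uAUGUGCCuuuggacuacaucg
The strongest match to the -3p seed is TGGACTGA (8mer), followed by TGGACTG (7mer-m8), GGACTGA (7mer-A1) and GGACTG (6mer). The sites of 5 genes that carry the results below follow, each a stretch of the GENCODE 29 3′ UTR (GRCh38) with the match in capitals. FGF18 is the gene the study followed up, BCL2L12, GNB5 and S1PR3 were lower with the mimic, and DIP2C was higher with it although its match is an 8mer.
FGF18 (6mer): actcacgcaaagGGACTGtagtcaacccac
BCL2L12 (8mer): gaacttgccatTGGACTGAgctctttctca
GNB5 (8mer): tgctgattttaTGGACTGAggactggtgac
S1PR3 (7mer-m8): gcattttgcaaTGGACTGtctccaaaagc
DIP2C (8mer): aaaagagttggTGGACTGAgattgaaattt
The FGF18 match lies in exon 5 of 5 at chr5:171457024-171457029 on the plus strand. The others lie at chr19:49673741-49673748 for BCL2L12 (plus strand, exon 5 of 5), chr15:52122312-52122319 for GNB5 (minus strand, exon 13 of 13), chr9:88994949-88994955 for S1PR3 (plus strand, exon 3 of 3) and chr10:274987-274994 for DIP2C (minus strand, exon 36 of 36).

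Values are normalised signal, the estimated counts per gene after the authors' scaling between libraries, and are not corrected for gene length. The sum over genes was 10974102 in the lowest and 12016813 in the highest library. The line's mesenchymal character was seen in all 12 libraries, with VIM at 37321, 35880.4 and 34369.5 in the mimic libraries and 43293, 40185 and 43026 in the inhibitor libraries. Of the chondrocyte markers, SOX9 was present (1415, 1247 and 1279.5 with the mimic, 1199.5, 1303 and 1299.5 with the inhibitor). So was COL11A1 (493, 635 and 415 with the mimic, 397, 363 and 482 with the inhibitor). ACAN was low but above 0 in all 12 libraries (5.75, 28.4 and 27.5 with the mimic, 10.7, 11.2 and 10.6 with the inhibitor). COL2A1, the collagen that defines cartilage, was listed at 0 in all 12 libraries, and COL9A1 did not exceed 2.20 in the mimic and inhibitor libraries. Mimic replicate 3 stood apart from the other mimic libraries. It scored 20.9 on the first principal component (25.0% of the variance), against -59.7 and -41.5 for mimic replicates 1 and 2, while the inhibitor libraries scored 15.7 to 34.0. Across the tested genes it correlated with the inhibitor control mean at Pearson r = 0.978 and with the mimic control mean at 0.968, whereas replicates 1 and 2 were closer to the mimic control. Its mitochondrial share, 6.09%, was the lowest but close to the next, where the other libraries had 6.45% to 9.93%. Counts that moved without it, or without another library, are given with those values below.

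Many of the genes that differed between the mimic and the inhibitor also differed in the same direction between their controls. Of 16468 genes tested, 2195 passed (13.3%) between the mimic and the inhibitor, 1261 higher with the mimic (7.66%) and 934 lower (5.67%), by limma with Benjamini-Hochberg adjustment at 0.05. Between the mimic control and the inhibitor control, each labelled as the control of its own kind of oligonucleotide, 1667 passed (10.1%), 886 higher with the mimic control (5.38%) and 781 lower (4.74%). Of the 1261 genes higher with the mimic, 381 (30.2%) were also called higher in the mimic control, 15 were called in the opposite direction and 865 were not called there. Their median log2 difference was 0.57, against 0.31 between the controls, and 87.0% had a control difference of the same sign. Among the 934 lower genes 194 (20.8%) were also called lower in the mimic control and 2 in the opposite direction, with medians of -0.64 and -0.29 and 83.8% of the same sign. Over all tested genes 69.2% had the same sign in both differences, with Pearson r = 0.347 and Spearman rho = 0.442 across genes, which are not independent replicates. The 2 differences share no library, although all 12 libraries set the spread. The test of the difference between them, (mimic minus inhibitor) minus (mimic control minus inhibitor control), called 140 genes (0.85%), 103 positive (0.625%) and 37 negative (0.225%), and 94 of these were among the 2195.

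**Figure D1:**
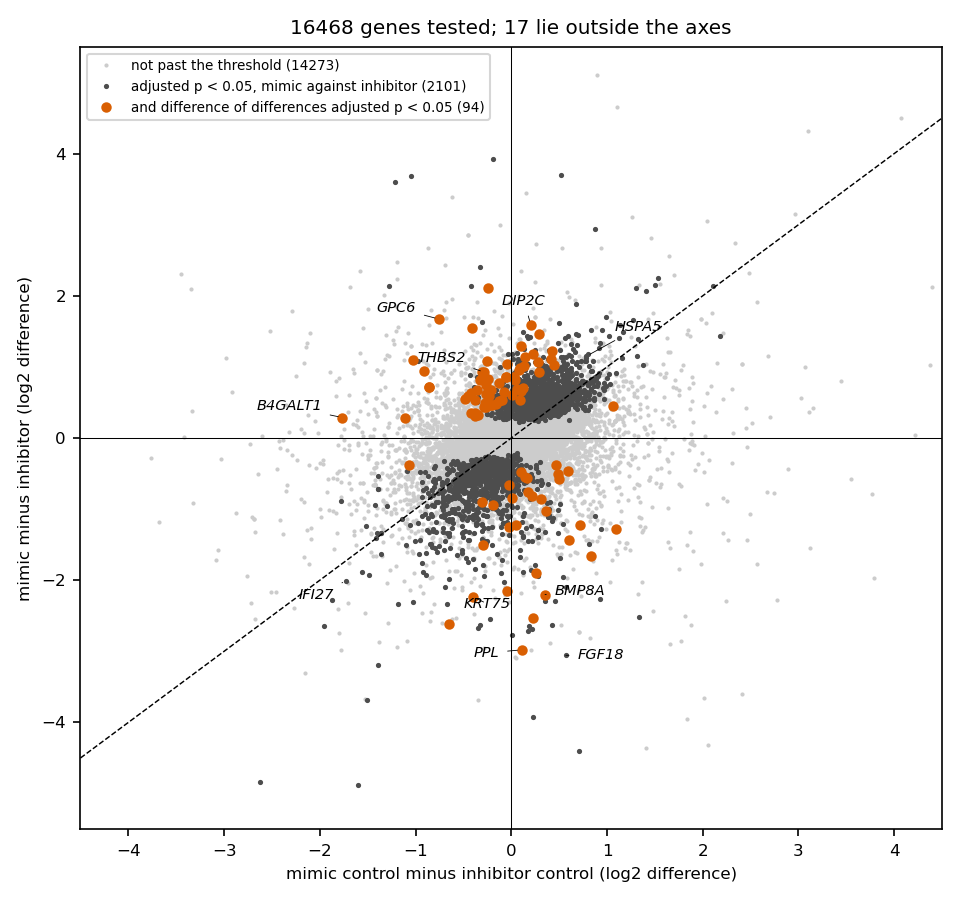
Log2 difference of each of 16468 genes between mimic and inhibitor (vertical) against its log2 difference between mimic control and inhibitor control (horizontal), with the line of equality dashed and 17 genes outside the axes. Dark points passed between mimic and inhibitor, and the 94 orange points also differed from their control difference; KRT75, PPL, BMP8A, GPC6 and DIP2C are far from the line, while HSPA5 and IFI27 were shifted the same way in the controls.

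The counts moved with single libraries. Without mimic replicate 3, 5200 genes passed, 2755 higher and 2445 lower, and 45.6% of the higher and 44.3% of the lower genes were also called between the controls. Leaving out another mimic or inhibitor library gave 1083 (without mimic replicate 1), 1007 (without mimic replicate 2), 727 (without inhibitor replicate 1), 1421 (without inhibitor replicate 2) and 1411 genes (without inhibitor replicate 3). A fit of the 6 compared libraries alone gave 400. The order of the 2 comparisons turned in each of these fits but the one without mimic replicate 3: the controls then had 2462 (without mimic replicate 1), 1565 (without mimic replicate 2), 1287 (without inhibitor replicate 1), 1518 (without inhibitor replicate 2) and 1493 genes (without inhibitor replicate 3), and 3913 in a fit of the 6 control libraries alone. A fit without a mimic or inhibitor library has fewer libraries in that comparison than in the controls. Leaving out a control library instead gave 1772 to 1892 genes between mimic and inhibitor and 271 to 954 between the controls. Differences were mostly modest: 110 of the higher and 214 of the lower genes differed by more than 1 on the log2 scale. Library values did not overlap between mimic and inhibitor for 1221 of the 1261 higher and 889 of the 934 lower genes, where 27.4% of all tested genes had libraries that did not overlap.

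FGF18, a fibroblast growth factor that regulates chondrocytes and bone formation, had one of the largest falls with the mimic. FGF18 (ENSG00000156427; chromosome 5, 171419656 to 171457623 on GRCh38, plus strand) had a signal of 1.03, 8.78 and 7.35 in the mimic libraries, against 34.9, 33.6 and 52.7 in the inhibitor libraries. In the mimic control it was 8.65, 14.2 and 7.53, and in the inhibitor control 5.45, 5.82 and 8.29. The 3 inhibitor libraries stood above the other 9, and the mimic libraries overlapped with those of both controls. The difference between mimic and inhibitor was log2 -3.06 ± 0.59, adjusted p = 0.00726, with a control difference of log2 0.57, adjusted p = 0.558. The difference of the 2 differences was log2 -3.63, adjusted p = 0.0688, and the exact two-sided permutation test of the 3 against 3 libraries gave p = 0.1, the smallest it allows. FGF18 passed whichever single library was left out (adjusted p 0.00207 to 0.0301) but not in the fit of its 6 libraries alone (adjusted p = 0.0569). The FGF18 3′ UTR spans 818 bases, and the 6mer shown above was the best match in it.

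The study tabulated 13 skeletal genes, and 8 of them had enough signal here to be tested. Apart from the added BMPR1A they were chosen on cartilage of miR-455 null mice, and FGF18 was followed up with these libraries in view, so its direction is not independent evidence. Those lower with the mimic were FGF18, the interferon-induced membrane protein IFITM1 and the bone morphogenetic protein BMP4, and none of the 8 was called higher. IFITM1 had a signal of 113, 119.6 and 176 in the mimic libraries, against 236, 236 and 305 in the inhibitor libraries. The controls were nearly as far apart, at 177, 172 and 145 in the mimic control and 274, 302 and 301 in the inhibitor control (mimic minus inhibitor log2 -0.95 ± 0.17, adjusted p = 0.00481; control difference log2 -0.83, adjusted p = 0.0142). BMP4 read 92.4, 82.5 and 121 with the mimic and 145, 142 and 171 with the inhibitor, with controls of 101, 103 and 111 (mimic control) and 121, 104 and 121 (inhibitor control). BMP4 differed by log2 -0.64 ± 0.15, adjusted p = 0.0198, and was not called without mimic replicate 1 or 2 or inhibitor replicate 1 or 3 (adjusted p up to 0.0824). The matrix proteoglycan VCAN (log2 1.52, adjusted p = 0.169), the steroid reductase SRD5A1 (log2 -0.29, adjusted p = 0.216), the BMP receptor BMPR1A (log2 0.22, adjusted p = 0.348), the BMP co-receptor HJV (log2 0.65, adjusted p = 0.555) and the channel protein PANX3 (log2 0.78, adjusted p = 0.295) did not pass. Without mimic replicate 3, 4 of the 8 were lower, without mimic replicate 1 or 2 or inhibitor replicate 1 or 3 it was 2, and with the 6 libraries alone 0. The median of the 8 was -0.03, where the median over all tested genes was 0.02.

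The falls with the smallest p among the largest were in genes whose signal was highest in the inhibitor libraries. For PPL, FBP1 and KLRC1 the mimic was also below both controls. KRT75, a type II keratin of hair follicles, had 850.5, 849 and 1221 in the mimic libraries, against 4658, 4487 and 4432 in the inhibitor libraries. Its controls held 960.1, 783 and 951 (mimic control) and 1095, 1231 and 1207 (inhibitor control), so the inhibitor libraries stood apart from all 9 others. KRT75 (chromosome 12, 52424070 to 52434525) differed by log2 -2.24 ± 0.13, adjusted p = 4.06e-06, against log2 -0.40, adjusted p = 0.0705 between the controls. PPL, periplakin of the cornified envelope and desmosomes, gave 7.55, 5.88 and 11.3 with the mimic, against 84.8, 77.5 and 44.3 with the inhibitor. PPL stood at 28.1, 14.4 and 21.9 in the mimic control and 12.5, 24.1 and 23.5 in the inhibitor control, groups that overlapped and lay between those of the mimic and the inhibitor (log2 -2.98 ± 0.38, adjusted p = 0.000982). BMP8A, a BMP ligand with a near-identical neighbour BMP8B that makes its level uncertain, had 41.8, 45.4 and 20.7 with the mimic, against 149.6, 184 and 144 with the inhibitor. Its mimic control libraries read 49.5, 50.8 and 57.0 and its inhibitor control libraries 43.0, 45.5 and 34.8, all far below the inhibitor libraries (log2 -2.20 ± 0.26, adjusted p = 0.000551). FBP1, fructose-bisphosphatase of gluconeogenesis (5.84 with the mimic and 36.9 with the inhibitor; log2 -2.54, adjusted p = 0.00251), and KLRC1, a receptor of natural killer cells (5.97 with the mimic and 26.8 with the inhibitor; log2 -2.29, adjusted p = 0.00537), fell with controls between as well, at 13.9 in the mimic control and 11.4 in the inhibitor control for FBP1 and 22.2, 13.6 and 15.4 in the mimic control and 13.7, 12.7 and 12.5 in the inhibitor control for KLRC1.

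TSPAN7, a tetraspanin, had one of the largest falls, but its mimic libraries disagreed. TSPAN7 read 20.7, 63.6 and 548 in the mimic libraries, against 1018, 791 and 709 in the inhibitor libraries. The mimic control held 469, 265 and 133 and the inhibitor control 691, 531 and 812, and mimic replicate 3 alone of the mimic libraries lay among the inhibitor control values. TSPAN7 differed by log2 -3.19 ± 0.85, adjusted p = 0.0289. It was not called without mimic replicate 1 or 2 or any inhibitor replicate (adjusted p up to 0.0994), and without mimic replicate 3 the adjusted p was 7.36e-05. C8G, a subunit of the complement component C8, fell in every such fit (log2 -2.31, adjusted p = 0.0127). The other large falls were of low genes and lost the call in at least 1 such fit: SLPI, a secreted protease inhibitor (log2 -2.34, adjusted p = 0.0186; up to 0.0723, without inhibitor replicate 1 or 3), SOSTDC1, a secreted BMP and Wnt antagonist (log2 -2.29, adjusted p = 0.0294; up to 0.103), RAPSN, rapsyn of the neuromuscular junction (log2 -2.69, adjusted p = 0.0315; up to 0.117), QRFP, a neuropeptide precursor (log2 -2.63, adjusted p = 0.0470; up to 0.178), FAM90A1 (log2 -2.33, adjusted p = 0.0472; up to 0.182) and the pseudogene NDUFB4P11, whose level is uncertain (log2 -4.40, adjusted p = 0.0315; up to 0.113). SOSTDC1 and RAPSN lost it without mimic replicate 1 or 2 or any inhibitor replicate, NDUFB4P11 without mimic replicate 1 or any inhibitor replicate, and QRFP and FAM90A1 in 11 and 8 of the 12 such fits.

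Among genes higher with the mimic, GPC6, DIP2C and OVCH2 had their lowest values in the inhibitor libraries. GPC6, a glypican of the cell surface that binds growth factors, had 1571, 1673 and 1525 in the mimic libraries, against 418, 605 and 487 in the inhibitor libraries. GPC6 read 1007, 1001 and 808 in the mimic control and 1683, 1446 and 1610.2 in the inhibitor control, so the mimic libraries overlapped with the inhibitor control and the controls differed the other way. The difference between mimic and inhibitor was log2 1.67 ± 0.13, adjusted p = 3.80e-05, against log2 -0.76, adjusted p = 0.00765 between the controls. DIP2C, a disco-interacting protein homologue, had 1116, 1072 and 1231 with the mimic, against 365, 414 and 353 with the inhibitor. Its controls held 1189, 1114 and 1119.9 (mimic control) and 1019.8, 949.7 and 1002 (inhibitor control), all far above the inhibitor libraries (log2 1.59 ± 0.09, adjusted p = 3.05e-06, the smallest p of the comparison). The 8mer printed above lies in the DIP2C 3′ UTR of 3135 bases. OVCH2, an ovochymase-like protease gene, had 63.4, 66.2 and 77.8 with the mimic and 27.4, 10.2 and 13.3 with the inhibitor (log2 2.11 ± 0.34, adjusted p = 0.00311), with 59.3 in the mimic control and 72.8 in the inhibitor control on average. PI15, a peptidase inhibitor, gave log2 1.55, adjusted p = 0.00452 and INSYN2A, an inhibitory synapse protein, log2 1.62, adjusted p = 0.00825.

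**Figure D2:**
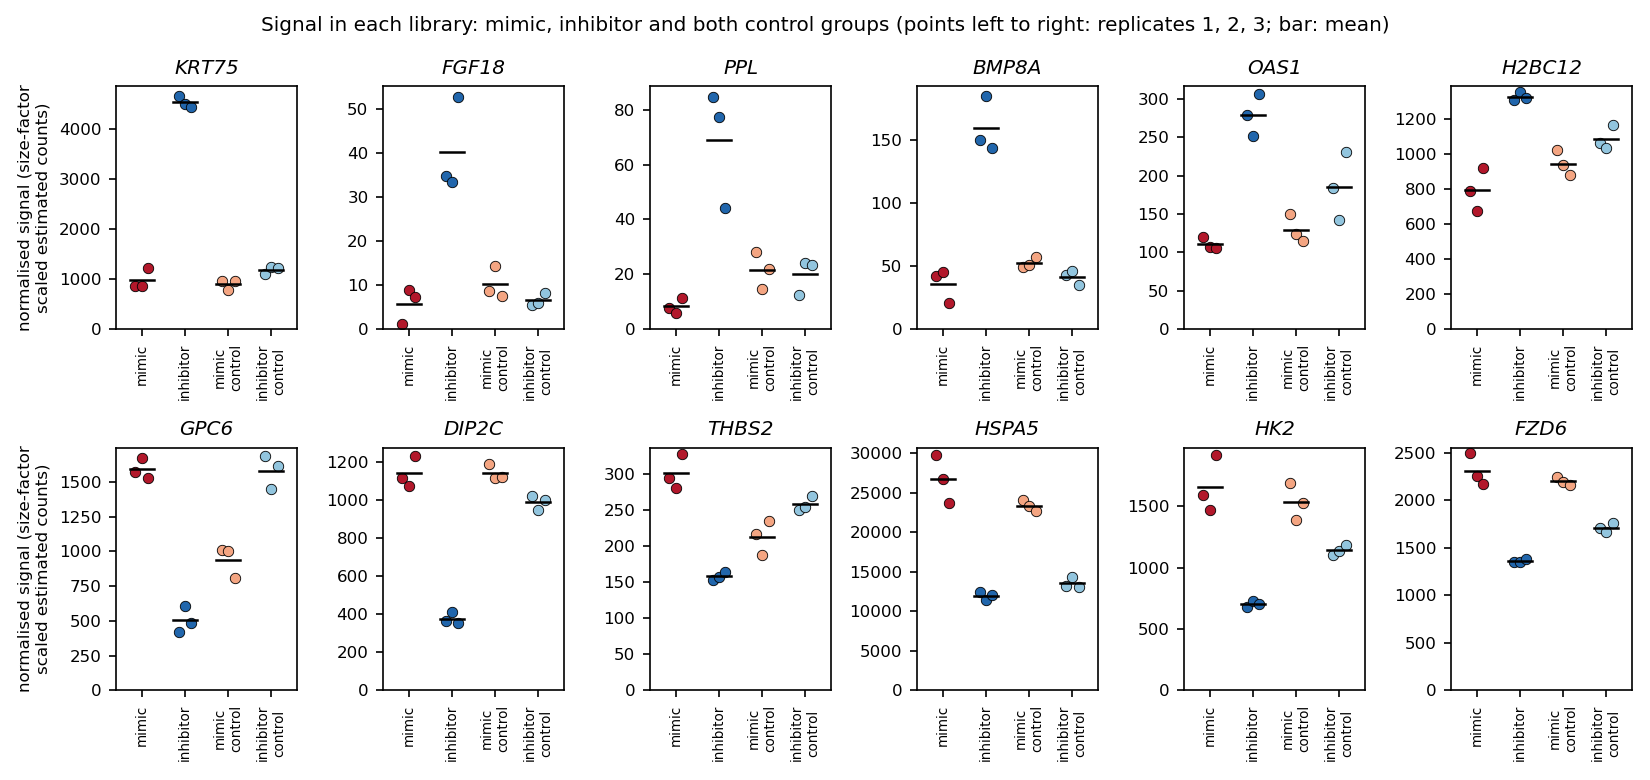
Normalised signal of 12 genes in each of the 12 libraries on linear axes from 0, in the order mimic, inhibitor, mimic control and inhibitor control, with replicates 1 to 3 from left to right and a bar at the mean. In the upper row the inhibitor libraries are the highest (KRT75 4432 to 4658, mimic 849 to 1221), and in the lower row the mimic libraries are above the inhibitor libraries, with HSPA5, HK2 and FZD6 also higher in the mimic control than in the inhibitor control.

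The remaining rises named by size were less firm or shared with the controls. ASNSP1, a pseudogene of asparagine synthetase whose reads cannot be told from its parent with certainty (log2 2.07, adjusted p = 0.00639), and TRHDE, a peptidase that degrades thyrotropin-releasing hormone (log2 1.59, adjusted p = 0.00972), were also higher in the mimic control (log2 1.41, adjusted p = 0.0399 and log2 1.14, adjusted p = 0.0469), and TRHDE was not called without inhibitor replicate 1 (adjusted p = 0.0523). The transporter pseudogene ABCA15P rose (log2 1.70, adjusted p = 0.00860). INO80B-WBP1, a read-through of neighbouring genes, was listed at 0 in all 3 inhibitor libraries and at 147, 109 and 9.25 in the mimic libraries, and its level is uncertain because its reads are shared with both genes (adjusted p = 0.0187; 0.0636 without inhibitor replicate 1). With any 1 mimic library removed INO80B-WBP1 did not pass the filter and was not tested. SLC35F1, a solute carrier (log2 2.25, adjusted p = 0.0393), TRIM27, a ubiquitin ligase (log2 2.14, adjusted p = 0.0469), and PPIL6, a cyclophilin-like protein (log2 1.66, adjusted p = 0.0276), lost the call in 8, 7 and 5 of the 12 fits that left out 1 library, with adjusted p up to 0.122, 0.149 and 0.110.

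In 35 of the called genes, 19 higher (1.51%) and 16 lower (1.71%), the control groups overlapped and lay between. All 6 control libraries then stood between the mimic and the inhibitor libraries. Such genes made up 0.212% of all tested genes. The pattern itself requires mimic and inhibitor libraries that do not overlap, so it favours called genes by definition and these shares cannot be compared. SMYD3, a lysine methyltransferase, had 3269, 3055 and 2676 with the mimic, against 1308, 1210.2 and 1461 with the inhibitor. In between stood 2244, 1989.9 and 2533 in the mimic control and 1842, 1869 and 2038 in the inhibitor control (log2 1.18 ± 0.11, adjusted p = 7.85e-05). WLS, the sorting receptor that Wnt proteins need for secretion, read 302, 314 and 309 with the mimic and 182, 167 and 177 with the inhibitor. For WLS the mimic control held 262, 255 and 278 and the inhibitor control 248, 259 and 264 (log2 0.82 ± 0.09, adjusted p = 0.000366). In both genes the mimic libraries were thus above, and the inhibitor libraries below, all 6 control libraries. The potassium channel KCNJ6 (log2 1.04, adjusted p = 0.00108), the cyclin CCNY (log2 0.70, adjusted p = 0.00125) and PSAT1 of serine synthesis (log2 0.99, adjusted p = 0.000218) showed the same order, and these 5 rose with the mimic. PPL, described above, also had its controls between but fell with the mimic (log2 -2.98), as did 16 of the 35 genes with this pattern.

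Unfolded protein response and ATF4 genes, which serve protein folding and amino acid supply, were higher with the mimic. Of 22 tested, 16 were called higher and 0 lower, all 22 had a positive difference, and the median was log2 0.59, against 0.29 between the controls, where 8 were called higher and 2 lower. Among all tested genes 7.66% were called higher and 5.67% lower with the mimic, the background of this and the other list counts. HSPA5, the main chaperone of the endoplasmic reticulum, had 29826, 26727 and 23724 with the mimic, against 12492, 11467 and 12061 with the inhibitor. Its mimic control libraries read 24082, 23344 and 22681 and its inhibitor control libraries 13261, 14359.7 and 13104. The 2 groups on the mimic side were thus both above the 2 on the inhibitor side (log2 1.15 ± 0.08, adjusted p = 2.52e-05; controls log2 0.78, adjusted p = 0.000445). CALR (log2 0.86, adjusted p = 4.50e-05) and CANX (log2 0.99, adjusted p = 0.000444), lectin chaperones of glycoproteins, rose as well. So did HSP90B1, the HSP90 of this compartment (log2 0.88, adjusted p = 0.00266), SEL1L of the degradation machinery (log2 0.80, adjusted p = 0.00165), and ASNS, which makes asparagine (log2 1.14, adjusted p = 0.000541). PSAT1 read 1541, 1448 and 1519.9 with the mimic, against 756, 772 and 739 with the inhibitor, and 979.8, 790.1 and 1039 in the mimic control with 844, 828 and 961 in the inhibitor control. HYOU1 and PDIA6, chaperones of the same compartment, ran the other way between the controls (log2 -0.86, adjusted p = 0.000621 and log2 -1.11, adjusted p = 3.14e-05) although both rose with the mimic over the inhibitor (log2 0.71, adjusted p = 0.00133 and log2 0.28, adjusted p = 0.0468). HYOU1 has a second identifier with identical values, and PDIA6 lost the call in 11 of the 12 fits that left out 1 library (adjusted p up to 0.147). Without mimic replicate 3 the counts were 17 higher and 0 lower, without inhibitor replicate 1 they were 11 and 0, and in the fit of the 6 libraries alone 8 and 0. The 8 called higher between the controls became 2 without mimic control replicate 3 or inhibitor control replicate 1.

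Genes of the hypoxia response and glycolysis moved in the same direction. Of 22 tested, 10 were called higher and 0 lower (median log2 0.44, controls 0.19), with 12 higher without mimic replicate 3 and 6 in the fit of the 6 libraries alone. HK2, hexokinase of the first step of glycolysis, had 1588, 1469 and 1915 with the mimic, against 676, 731 and 707 with the inhibitor. HK2 read 1691, 1388 and 1525 in the mimic control and 1100.0, 1135 and 1185 in the inhibitor control, and the inhibitor libraries lay below all others (log2 1.23 ± 0.10, adjusted p = 5.52e-05). NDRG1, a stress-responsive gene induced in hypoxia, had 1893, 1747 and 1385 with the mimic and 666, 717 and 691 with the inhibitor. Its controls were nearly as far apart, at 1622, 1336 and 1608 (mimic control) and 750.1, 807 and 846 (inhibitor control; log2 1.26 ± 0.12, adjusted p = 7.85e-05). Also higher were the glucose transporter SLC2A1 (log2 1.06, adjusted p = 0.00283), PDK1, a kinase that restrains pyruvate oxidation (log2 1.04, adjusted p = 0.00377), the vasodilator peptide ADM (log2 0.68, adjusted p = 0.000982) and the enolase ENO2 (log2 0.70, adjusted p = 0.00163). Vascular growth factor VEGFA stood at log2 0.44, adjusted p = 0.0630, and the abundant glycolytic enzymes PGK1 (log2 0.06, adjusted p = 0.531) and ALDOA (log2 -0.03, adjusted p = 0.869) did not pass.

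Type I interferon response genes, an antiviral set, were lower with the mimic. Of 35 tested, 15 were called lower and 0 higher, and the median was -0.50, against -0.11 between the controls, where 7 were called lower with the mimic control. OAS1, an RNA-sensing synthetase, had 119.5, 108 and 105 with the mimic, against 279, 252 and 307 with the inhibitor. In the controls OAS1 read 149, 123 and 115 (mimic control) and 184, 142 and 231 (inhibitor control). The mimic and inhibitor libraries did not overlap, and the inhibitor control lay between them (log2 -1.33 ± 0.17, adjusted p = 0.000987). ISG15, a ubiquitin-like modifier, read 305, 276 and 409.9 with the mimic and 727, 575 and 773 with the inhibitor. ISG15 was also low in the mimic control (372, 318 and 311) relative to the inhibitor control (543, 527 and 734; log2 -1.07 ± 0.17, adjusted p = 0.00289, controls log2 -0.84, adjusted p = 0.0146). IFI27 (log2 -2.01, adjusted p = 0.0118; controls log2 -1.72, adjusted p = 0.0294) and IFI6 (log2 -1.33, adjusted p = 0.00670; controls log2 -1.40, adjusted p = 0.00953), small membrane proteins induced by interferon, were likewise lower in the mimic control than in the inhibitor control, and IFI27 was not called without inhibitor replicate 1 (adjusted p = 0.0604). IFIT1, which binds viral RNA (log2 -1.19, adjusted p = 0.00394), IFI35 (log2 -0.99, adjusted p = 0.00394), BST2, which tethers budding virus (log2 -1.52, adjusted p = 0.00456), and the transcription factor IRF1 (log2 -0.66, adjusted p = 0.00581) fell. The count of 15 was 16 without mimic replicate 3, 22 after centring on transcript GC content, 10 without inhibitor replicate 1, 11 without mimic replicate 2, 12 without inhibitor replicate 3 and 7 in the fit of the 6 libraries alone, with 0 higher in each. The 7 lower between the controls became 2 without mimic control replicate 3 or inhibitor control replicate 1. Without mimic replicate 3, 4 of the 14 NF-kB and inflammatory genes were lower. In the main fit 2 of the 14 were lower and 0 higher (median -0.18), beside 5.67% lower over all tested genes. One of them, the inhibitor of NF-kB NFKBIA (log2 -0.26, adjusted p = 0.0468), lost the call in 11 of the 12 fits that left out 1 library (adjusted p up to 0.171). The other was TNFAIP2, a TNF-induced protein (2899, 3097 and 2884 with the mimic, 5069.6, 5036 and 4615 with the inhibitor; log2 -0.73 ± 0.07, adjusted p = 8.75e-05).

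Keratins and other epithelial genes were lower with the mimic. Of 9 tested, 6 were called lower and 0 higher (median -0.96, controls -0.40 with 3 called lower). The count was 7 without mimic replicate 3 and 5 without mimic or inhibitor replicate 1, and the 3 called between the controls became 1 without any single mimic control library or inhibitor control replicate 1. Beside KRT75 these were KRT81, a hair keratin with close paralogues (5210.5, 5348 and 6804 with the mimic, 11655, 11319 and 10692 with the inhibitor; log2 -0.96 ± 0.10, adjusted p = 0.000160), KRT18 (log2 -0.83, adjusted p = 0.000366), KRT8 (log2 -0.64, adjusted p = 0.00394), KRT7 (log2 -1.89, adjusted p = 0.0103) and CLDN4, a claudin of tight junctions (log2 -1.48, adjusted p = 0.0212; up to 0.101, without mimic or inhibitor replicate 1). For KRT81 the mimic control held 4272, 4260.0 and 4492 and the inhibitor control 6345, 5696 and 5748, both below the inhibitor libraries. KRT8 and KRT18, the keratins of simple epithelia, have many processed pseudogenes and their levels are uncertain. Of 4 markers that define epithelium, EPCAM did not exceed 4.31 and KRT14 did not exceed 1.70 in any library. KRT5, a basal keratin, read 6.29, 10.2 and 4.11 with the mimic and 18.3, 8.70 and 24.1 with the inhibitor (log2 -1.22, adjusted p = 0.214). CDH1, the cadherin of epithelial junctions, stood at 35.8 in inhibitor replicate 1 and 41.1 in mimic control replicate 1 and did not exceed 8.99 in the other libraries. Their part in the keratin values was not tested. Of 3 blood cell and 3 endothelial markers tested, 0 were called by limma in either direction and 1 had an unadjusted p under 0.05, with 1 blood cell marker lower without mimic replicate 3.

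**Figure D3:**
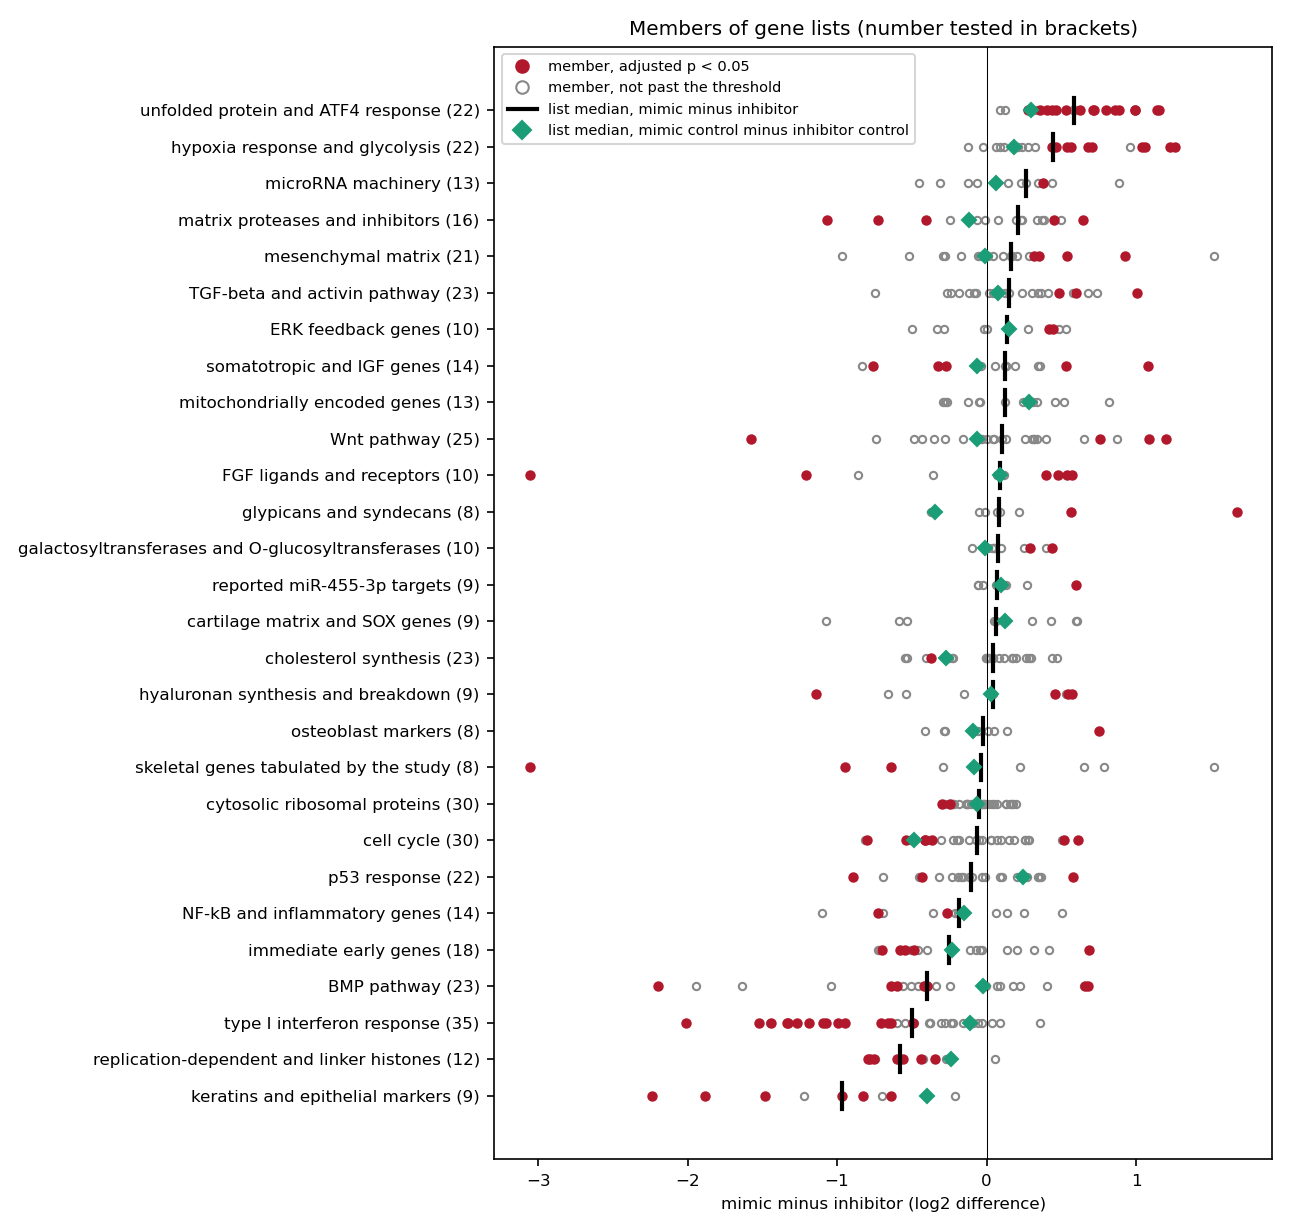
Log2 difference between mimic and inhibitor of each tested member of 28 gene lists with at least 8 tested members, ordered by the list median (black bar), with filled points past the threshold. The green diamonds give the median of the same genes between mimic control and inhibitor control, which lies on the same side of 0 as the list median for the unfolded protein, hypoxia, interferon, histone and keratin lists, at the top and bottom of the plot.

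Histone genes were also lower with the mimic. Of 12 replication-dependent and linker histones tested, 7 were called lower and 0 higher (median -0.58, controls -0.23), with 5 lower without inhibitor replicate 1 and 3 in the fit of the 6 libraries alone. H2BC12, a core histone, had 786, 673 and 917 with the mimic, against 1306, 1352 and 1320.0 with the inhibitor. H2BC12 read 1021, 933 and 876 in the mimic control and 1063, 1031 and 1164 in the inhibitor control, both below the inhibitor libraries (log2 -0.76 ± 0.11, adjusted p = 0.00164). H2AC11 (log2 -0.80, adjusted p = 0.00335), H4C8 (log2 -0.78, adjusted p = 0.00705) and the linker histone H1-2 (log2 -0.60, adjusted p = 0.00460) fell too, and near-identical copies make single members uncertain. Replication genes of the cell cycle list were lower, with MCM5 (log2 -0.80, adjusted p = 0.00688), MCM7 (log2 -0.37, adjusted p = 0.0172), MCM3 (log2 -0.41, adjusted p = 0.0269), the sliding clamp PCNA (log2 -0.41, adjusted p = 0.0263) and the ribonucleotide reductase subunit RRM2 (log2 -0.54, adjusted p = 0.0441), while the mitotic genes BUB1B (log2 0.61, adjusted p = 0.0409) and TOP2A (log2 0.52, adjusted p = 0.0473) were higher. In all 2 of 30 rose and 5 fell (median -0.06), and between the controls 0 rose and 11 fell (median -0.48). The 11 became 17 without mimic replicate 3, 4 without inhibitor control replicate 1 and 6 or 7 without another control library, and the 2 and 5 became 0 and 1 without mimic replicate 2 or inhibitor replicate 1 or 3. BUB1B, TOP2A and RRM2 lost the call in 9, 10 and 8 of the 12 fits that left out 1 library (adjusted p up to 0.154), and MCM7, MCM3 and PCNA were not called without inhibitor replicate 1 or 3 or mimic replicate 2, and MCM7 and MCM3 also without mimic replicate 1 (adjusted p up to 0.113).

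In the BMP pathway, 6 of 23 tested genes were called lower with the mimic and 2 higher (median -0.40, controls -0.02). Beside BMP8A and BMP4 the lower ones were the immediate transcriptional targets ID1 (log2 -0.42, adjusted p = 0.0236), ID2 (log2 -0.40, adjusted p = 0.0142) and ID3 and the pseudoreceptor BAMBI (log2 -0.40, adjusted p = 0.0129). ID1, ID2 and BAMBI were not called without inhibitor replicate 1 or a mimic library (replicate 1 for ID1, 2 for ID2 and BAMBI), nor ID1 without inhibitor replicate 2 (adjusted p up to 0.109). ID3 read 791, 902 and 1141 with the mimic, against 1477, 1429 and 1340.4 with the inhibitor, and has a second identifier with identical values. In the controls ID3 read 1176, 1250.0 and 1073 (mimic control) and 1517, 1341 and 1340.0 (inhibitor control), so the mimic libraries 1 and 2 were the lowest of the 12 (log2 -0.60 ± 0.12, adjusted p = 0.00840). The receptors BMPR2 (log2 0.66 ± 0.11, adjusted p = 0.00370) and ACVR1 (log2 0.68 ± 0.12, adjusted p = 0.00419) rose, with similar values between the controls (log2 0.65, adjusted p = 0.00703 and log2 0.67, adjusted p = 0.00807). Without mimic replicate 3 the counts were 10 lower and 3 higher, without inhibitor replicate 1 they were 2 and 2, without mimic replicate 2 they were 3 and 2, without mimic replicate 1 they were 4 and 2, and in the fit of the 6 libraries alone 1 and 2.

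TGF-beta and activin genes held 3 called higher and 0 lower of 23 (median 0.15, controls 0.07), beside 7.66% and 5.67% of all tested genes. Between the controls 4 were called higher and 1 lower. With 1 control library left out it was 1 or 2 higher and 0 lower there. The matricellular protein CCN2, a standard target of TGF-beta, rose, with 1101, 1099.8 and 1219.7 with the mimic and 840.4, 756 and 849 with the inhibitor (log2 0.48, adjusted p = 0.0118; controls log2 0.01, adjusted p = 0.961). SMAD2, which carries the TGF-beta signal to the nucleus, rose too, with 701, 593 and 605 with the mimic and 415, 369 and 474 with the inhibitor (log2 0.60 ± 0.11, adjusted p = 0.00541; controls log2 0.40, adjusted p = 0.0388). SMAD3 stood at log2 0.02, adjusted p = 0.940 and SMAD4 at log2 0.36, adjusted p = 0.109. Without mimic replicate 3 the counts between mimic and inhibitor were 9 higher and 2 lower, and in the fit of the 6 libraries alone 1 and 0.

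Of 10 FGF ligands and receptors tested, 4 were called higher with the mimic and 2 lower. The receptors FGFRL1 (log2 0.57 ± 0.08, adjusted p = 0.00161), FGFR2 (log2 0.54 ± 0.09, adjusted p = 0.00365) and FGFR1 (log2 0.40, adjusted p = 0.0231) and the intracellular factor FGF13 (log2 0.48, adjusted p = 0.0164) were higher with the mimic, and the secreted ligands FGF18 and FGF5 (log2 -1.21, adjusted p = 0.0329) were lower. FGFR1 was not called without mimic replicate 1 or 2 or inhibitor replicate 1 or 3, nor FGF5 without mimic replicate 1 or 2 or inhibitor replicate 2 or 3 (adjusted p up to 0.114). FGFR2 had 858, 746 and 716 with the mimic, against 494, 554 and 546 with the inhibitor, while the mimic control held 691, 735 and 662 and the inhibitor control 729, 747 and 758. The inhibitor libraries were the 3 lowest of the 12. Of 10 feedback genes of ERK signalling, which FGF receptors activate, DUSP5, a phosphatase (log2 0.45, adjusted p = 0.0188), and SPRED1, an inhibitor of RAS activation (log2 0.42, adjusted p = 0.0488), rose and 0 fell (median 0.14, controls 0.15). FGF13 and DUSP5 were not called without inhibitor replicate 1 or 2 (adjusted p up to 0.0841), and SPRED1 lost the call in 11 of the 12 fits that left out 1 library (up to 0.137).

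Of 25 Wnt pathway genes, 3 were higher with the mimic and 1 lower (median 0.10, controls -0.07), beside 7.66% and 5.67% of all tested genes. The receptor FZD6 had 2498, 2250.4 and 2167 with the mimic, against 1349.9, 1352 and 1384 with the inhibitor, with 2249, 2192 and 2161 in the mimic control and 1708, 1669 and 1756 in the inhibitor control (log2 0.76 ± 0.07, adjusted p = 7.95e-05; controls log2 0.36, adjusted p = 0.0118). WNT7B, a ligand, was the one that fell, at 41.4, 35.0 and 54.5 with the mimic and 151, 159.5 and 89.0 with the inhibitor (log2 -1.58 ± 0.24, adjusted p = 0.00207). The secreted antagonists SFRP1 (log2 1.199, adjusted p = 0.0152) and SFRP4 (log2 1.09, adjusted p = 0.0424) rose. SFRP1 was not called without mimic replicate 1 (adjusted p = 0.0602), and SFRP4 in 11 of the 12 fits that left out 1 library (up to 0.135).

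Mesenchymal matrix genes that passed were higher with the mimic in the main fit, but lay on both sides without mimic replicate 3. Of 21 tested, 4 were higher with the mimic and 0 lower (median 0.16, controls -0.01), and without mimic replicate 3 it was 5 and 3. Over all tested genes 7.66% were higher and 5.67% lower. The adhesion-modulating glycoprotein TNC had 3998, 3909 and 3924 with the mimic, against 2645, 2773 and 2709 with the inhibitor, and 4124, 3694 and 3732 in the mimic control with 3644, 3575 and 3624 in the inhibitor control. The inhibitor libraries were again the lowest 3 (log2 0.54 ± 0.06, adjusted p = 0.000550; controls log2 0.09, adjusted p = 0.375). Thrombospondin THBS2 read 295, 280.4 and 328 with the mimic and 153, 157 and 164 with the inhibitor, with 216, 187 and 235 in the mimic control and 249.6, 255 and 269 in the inhibitor control (log2 0.93 ± 0.11, adjusted p = 0.000619; controls log2 -0.28, adjusted p = 0.116). The collagens COL6A3 (log2 0.35, adjusted p = 0.0334) and COL12A1 (log2 0.32, adjusted p = 0.0330) rose but lost the call without mimic replicate 2 or inhibitor replicate 1 or 3, COL12A1 also without mimic replicate 1 (adjusted p up to 0.123), and FN1 stood at log2 0.01, adjusted p = 0.971. Beside GPC6 the glypican GPC4 rose (log2 0.57 ± 0.08, adjusted p = 0.00163), while the 6 other glypicans and syndecans tested were not called (list median 0.08, controls -0.34).

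Proteases were mixed. Of 16 matrix proteases and inhibitors, 2 were higher and 3 lower (median 0.21, controls -0.12), beside 7.66% and 5.67% of all tested genes. TIMP3, an inhibitor of matrix proteases bound to the matrix, had 25447, 21922 and 24023 with the mimic, against 14488, 14424 and 16725 with the inhibitor, with controls of 18625, 16892 and 19058 (mimic control) and 13752, 13415 and 15952 (inhibitor control; log2 0.65 ± 0.09, adjusted p = 0.00170). The gelatinase MMP9 was lower, at 155, 132 and 190.4 with the mimic and 338, 324 and 329 with the inhibitor (log2 -1.07 ± 0.16, adjusted p = 0.00219; controls log2 -0.68, adjusted p = 0.0241). The membrane protease MMP15 (log2 -0.73, adjusted p = 0.00552) and the soluble inhibitor TIMP1 (log2 -0.40, adjusted p = 0.0255) fell, TIMP1 not without mimic replicate 2 or inhibitor replicate 1 or 3 (up to 0.0981), and the sheddase ADAM17 rose (log2 0.45, adjusted p = 0.0115). MMP13, the collagenase of cartilage breakdown, did not pass (log2 0.50). Of 9 genes of hyaluronan turnover, the receptor CD44 (log2 0.46, adjusted p = 0.00451) and the depolymerising CEMIP2 (log2 0.57, adjusted p = 0.0179) and CEMIP (log2 0.54, adjusted p = 0.0224) were higher and the hyaluronan-binding TNFAIP6 lower (log2 -1.14, adjusted p = 0.0325; list median 0.04, controls 0.03). CEMIP, CEMIP2 and TNFAIP6 lost the call without mimic replicate 1 or inhibitor replicate 1, among others (adjusted p up to 0.0949).

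Cartilage genes and the host gene gave no call. Of 9 cartilage matrix and SOX genes, 0 passed by limma in either direction (1 was higher without mimic replicate 1 or 3) and 0 had an unadjusted p under 0.05, which 30.7% of all tested genes had (median 0.07, controls 0.12), and COL27A1, the host of miR-455, read 169.8, 186 and 294 with the mimic and 139.8, 144 and 189 with the inhibitor (log2 0.43 ± 0.21, adjusted p = 0.185). Of 9 targets of miR-455-3p named in earlier work that the study cites or that are commonly listed, 0 were lower by limma or at an unadjusted p under 0.05, 1 was higher, SMAD2 above, and the median was 0.07, against 0.10 between the controls. As 5.67% of all tested genes were called lower and 7.66% higher, counts of 0 and 1 in 9 genes do not set this list apart. The histone deacetylases HDAC2 (log2 0.12, adjusted p = 0.599) and HDAC8 (log2 0.27, adjusted p = 0.148), the hypoxia factor EPAS1 (log2 -0.06, adjusted p = 0.729), the osteoblast factor RUNX2 (log2 -0.05, adjusted p = 0.793) and the activin receptor ACVR2B (log2 0.06, adjusted p = 0.876) were among the 8 not called. In the microRNA machinery, AGO1, an Argonaute protein, rose (log2 0.38, adjusted p = 0.0382) with 0 of the other 12 called, and lost the call in 8 of the 12 fits that left out 1 library (up to 0.143).

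The other lists held few calls, where 7.66% of all tested genes were called higher and 5.67% lower. Immediate early genes held 1 higher and 4 lower of 18 (median -0.25, controls -0.23), with MYC higher (log2 0.68, adjusted p = 0.00936) and JUN (log2 -0.48, adjusted p = 0.00939), JUND (log2 -0.58, adjusted p = 0.0132), JUNB (log2 -0.55, adjusted p = 0.0452; up to 0.159, lost in 9 of 12 fits) and KLF4 (log2 -0.70, adjusted p = 0.0250) lower. Of 22 p53 response genes 1 rose and 2 fell (median -0.11, controls 0.24). ZMAT3 was the one higher (log2 0.58, adjusted p = 0.00936), BTG2 (log2 -0.43, adjusted p = 0.0214) and TP53I3 the ones lower, TP53I3 with a control difference of the same sign (log2 -0.89, adjusted p = 0.00204; controls log2 -1.77, adjusted p = 3.14e-05). Of 14 somatotropic and IGF genes 2 rose and 3 fell (median 0.13, controls -0.06), among them the secreted hormone STC2 (log2 1.08, adjusted p = 0.0120) and the receptor IGF2R (log2 0.53, adjusted p = 0.00207) on the higher side and IGFBP6, a binding protein of insulin-like growth factors, on the lower (log2 -0.76, adjusted p = 0.00831). The other ones that fell, the binding proteins IGFBP3 (log2 -0.27, adjusted p = 0.0349) and IGFBP7 (log2 -0.33, adjusted p = 0.0374), each lost the call in 7 of the 12 fits that left out 1 library (adjusted p up to 0.126), and the 3 became 1 without mimic replicate 2 or any inhibitor replicate. KLF4, ZMAT3, BTG2 and STC2 were not called without inhibitor replicate 1, among others for KLF4 and BTG2 (adjusted p up to 0.0982). The 8 osteoblast markers tested had a median of -0.02, against -0.09 between the controls. Cholesterol synthesis genes held 0 higher and 1 lower of 23 (median 0.05), while between the controls 7 were lower (median -0.27), which became 2 without mimic control replicate 1 or 2 or inhibitor control replicate 1. Between mimic and inhibitor 0 were lower in 9 of the 12 fits that left out 1 library. Cytosolic ribosomal protein genes held 2 of 30 lower (median -0.05, controls -0.06), RPLP0 (log2 -0.24, adjusted p = 0.0425) and RPS19 (log2 -0.30, adjusted p = 0.0464), which lost the call in 11 and 10 of the 12 fits that left out 1 library and with the replicate block. Mitochondrially encoded genes held 0 of 13 called by limma, with 3 higher and 2 lower at an unadjusted p under 0.05 (median 0.12, controls 0.29). Without mimic replicate 3 several small counts grew: to 6 higher among mitochondrially encoded genes, 5 higher and 2 lower in the microRNA machinery, 4 and 4 in the Wnt list, 5 and 3 among mesenchymal matrix genes, 5 and 3 among proteases, 4 and 7 in the cell cycle, 1 and 7 among immediate early genes, 4 and 5 in the p53 response, 3 and 8 among ribosomal proteins, and 3 and 4 in cholesterol synthesis. Others shrank without inhibitor replicate 1: to 0 higher among ERK feedback genes, 2 among mesenchymal matrix genes, 1 and 0 in hyaluronan turnover, 2 and 2 among FGF genes, 1 and 2 among immediate early genes, and 0 and 1 in the p53 response. The 3 higher Wnt genes became 1 without mimic replicate 1.

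B4GALT1, a galactosyltransferase of the Golgi, had the largest gap between the 2 differences relative to its error. B4GALT1 read 8089.9, 7681 and 6997 with the mimic and 6248, 6342 and 6019.8 with the inhibitor. The mimic control stood alone at 2097, 2172 and 1995, where the inhibitor control held 7080.4, 7086 and 7117. Mimic and inhibitor differed by log2 0.29 ± 0.07, adjusted p = 0.0183, not called without mimic replicate 1 or 2 or inhibitor replicate 1 or 3 (up to 0.0667), and the controls by log2 -1.77 ± 0.07, adjusted p = 5.50e-08. Of the 10 galactosyltransferases and O-glucosyltransferases, 2 were higher and 0 lower (median 0.07, controls -0.01), with 3 higher without mimic replicate 3 and 0 without mimic replicate 1 or 2 or inhibitor replicate 1, the other being POGLUT2 (log2 0.44, adjusted p = 0.0261; up to 0.108, without mimic replicate 1 or 2 or inhibitor replicate 1 or 2).

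Transcripts with a miR-455-3p seed match were, as a whole, slightly higher with the mimic, not lower. An annotated 3′ UTR of 50 bases or more was found for 13935 tested protein coding genes, of which 1852 held an 8mer or 7mer-m8, and their median log2 difference was 0.07, against 0.02 for the 9212 genes with no match. Of the genes with such a match 11.6% were called higher with the mimic and 5.67% lower, against 7.53% and 6.18% of those without. The same genes had a median of 0.06 between the controls. Genes with a match had longer 3′ UTRs, with a median of 2808 bases, against 948 for those without, and the difference between mimic and inhibitor rose with 3′ UTR length. Within each quartile of length, genes with a match lay below those without. The medians with and without a match were -0.23 and -0.13 in the shortest quartile (50 to 562 bases), -0.12 and -0.01 in the second, 0.02 and 0.12 in the third, and 0.16 and 0.23 in the longest. Between the controls the medians of genes with a match were also below, at -0.12 and -0.10, -0.05 and 0.01, 0.05 and 0.11, and 0.11 and 0.20 in the 4 quartiles. For the -5p seed, 1520 genes with an 8mer or 7mer-m8 had a median of 0.13, and 0.11 between the controls. These medians are descriptions over genes, with no test.

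**Figure D4:**
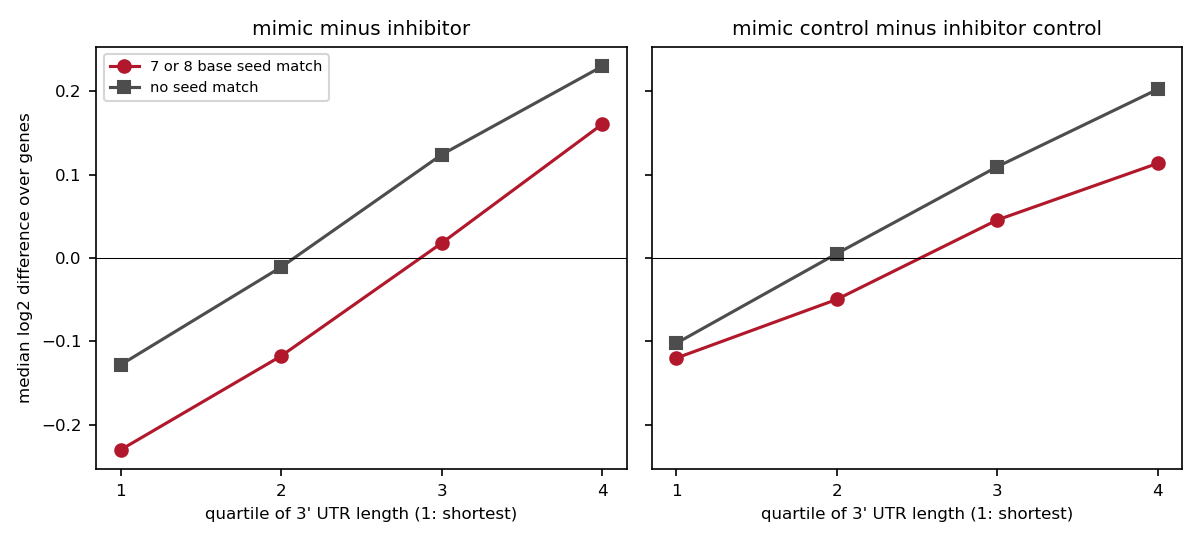
Median log2 difference of genes with a 7 or 8 base match to the miR-455-3p seed in the 3′ UTR (circles, 8mer or 7mer-m8) and of genes with no match (squares), by quartile of 3′ UTR length, for mimic minus inhibitor (left) and mimic control minus inhibitor control (right). Both lines rise with length in both panels, from -0.23 to 0.16 with a match and from -0.13 to 0.23 without one for mimic minus inhibitor, and genes with a match are lower in every quartile of both.

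Among the 105 genes lower with the mimic that held an 8mer or 7mer-m8, the 12 with the smallest p were examined. GNB5, a G protein beta subunit, had a 3′ UTR of 7652 bases with the 8mer shown above and 3 further 7mer-m8. GNB5 had 404, 372 and 377 with the mimic, against 522, 541 and 542 with the inhibitor, with 496, 436 and 436 in the mimic control and 429.8, 409 and 435 in the inhibitor control, all 6 between the mimic and the inhibitor libraries (log2 -0.48 ± 0.09, adjusted p = 0.00461; controls log2 0.10, adjusted p = 0.455). BCL2L12, a BCL2-family relative, read 89.2, 134 and 169 with the mimic and 351, 303 and 309.5 with the inhibitor. Its controls held 197, 214 and 264 (mimic control) and 317, 300.2 and 264 (inhibitor control), and the mimic libraries were the 3 lowest of the 12 (log2 -1.34 ± 0.20, adjusted p = 0.00191). S1PR3, a receptor of sphingosine-1-phosphate, had 341, 348 and 274 with the mimic, against 559, 537 and 569.6 with the inhibitor. S1PR3 was 303, 270.0 and 316 in the mimic control and 388, 323 and 382 in the inhibitor control, so here the inhibitor libraries stood apart (log2 -0.80 ± 0.12, adjusted p = 0.00187). The actin-binding TAGLN2 (log2 -0.50, adjusted p = 0.00107; controls log2 -0.30, adjusted p = 0.0190), the transcription elongation inhibitor HEXIM1 (log2 -0.47, adjusted p = 0.00264; controls log2 -0.32, adjusted p = 0.0224), the histone variant H2AX (log2 -1.12, adjusted p = 0.00317; controls log2 -0.87, adjusted p = 0.0159), the cytokine-binding IL18BP (log2 -0.99, adjusted p = 0.00373; controls log2 -0.61, adjusted p = 0.0368), C1orf116 (log2 -1.50, adjusted p = 0.00430; controls log2 -1.10, adjusted p = 0.0235), and the actin-associated SYNPO (log2 -0.74, adjusted p = 0.00399; controls log2 -0.56) were also called lower in the mimic control than in the inhibitor control. GOLGA7B (log2 -0.74, adjusted p = 0.00460), LINC02881 (log2 -1.44, adjusted p = 0.00394) and IFIT1 of the interferon list completed the 12.

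The difference between mimic and inhibitor followed properties of the transcripts, and did so in the controls as well. With protein coding genes put in 5 equal groups by the GC content of the longest transcript, the median log2 difference was 0.24 in the lowest group and -0.30 in the highest, against 0.28 and -0.26 between the controls. In 5 groups by length on the genome it was -0.21 in the shortest and 0.24 in the longest, against -0.18 and 0.19 between the controls, and 19.4% of the longest group were called higher and 1.26% lower, against 1.68% and 13.7% of the shortest. Across genes, Spearman's rho with GC content was -0.463 for mimic minus inhibitor, -0.493 for the controls and 0.001 for the difference of the differences (n = 14275 genes, which share the 12 libraries). Mimic replicate 3 did not take part in the GC pattern: its medians against the inhibitor mean were 0.018 in the lowest and -0.013 in the highest group, where replicate 1 had 0.42 and -0.49 and replicate 2 had 0.29 and -0.36. After centring each library in 20 bins of transcript GC content, an alternative chosen after seeing the data, 1956 genes passed, 1078 higher and 878 lower, of which 1388 were also among the 2195. Of the lists, 13 unfolded protein genes (16 before centring) and 11 hypoxia genes (10 before) were then called higher. Called lower were 22 interferon genes (15 before), 6 keratin genes (6), 7 histone genes (7) and 5 BMP genes (6). Between the controls 1 keratin gene was lower (3 before). What part GC content has in the single results was not tested beyond this. In these bulk libraries a change in the RNA per cell and a change in the share of cells cannot be told apart.

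**Figure D5:**
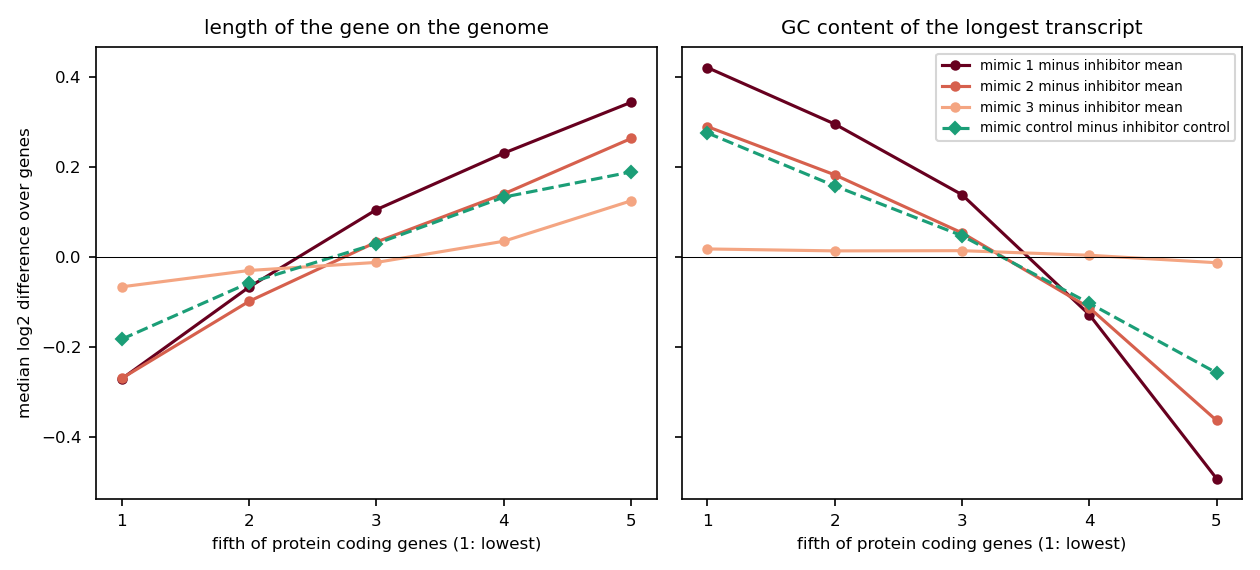
Median log2 difference of protein coding genes in 5 equal groups by length on the genome (left) and by transcript GC content (right), for each mimic library minus the inhibitor mean (circles) and for mimic control minus inhibitor control (dashed, diamonds). Mimic replicates 1 and 2 follow the control line, from 0.42 and 0.29 in the lowest to -0.49 and -0.36 in the highest GC group, while mimic replicate 3 stays near 0 (0.018 and -0.013).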

How the data were processed

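RNA was sequenced from SW1353 cells in 12 libraries, 3 in each of 4 groups taken from the labels. Per the submitters' processing notes, the authors trimmed reads (FastQC, Trim Galore), quantified transcripts with kallisto against hg38 and normalised the estimated counts between libraries with sleuth (software versions: not given in the sources used here). Deposited values are thus a normalised signal per gene identifier, not whole counts, and no source states whether all 12 libraries were scaled together. Of 40490 identifiers, 35521 had a symbol and 35493 were found in GENCODE 29.

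Values were analysed as log2(signal + 0.5), so folds of low genes are understated. Genes with a signal of at least 5 in at least 47% of libraries were tested (16468). limma 3.58.1 (R 4.3.3; lmFit on 4 group means, eBayes with trend) gave mimic minus inhibitor, mimic control minus inhibitor control and the difference of these, with Benjamini-Hochberg adjustment over all genes tested. Errors after ± are standard errors of log2 differences. Tables and figures were made with Python 3.11.15, pandas 2.3.3 and matplotlib 3.10.9. On simulated data of the same 16468 genes with 200 changed, the fit recovered 58% of genes changed by 1 and 78% of those changed by 2 on the log2 scale. The simulated noise was independent between genes, with no difference between the controls, no GC pattern and no library that stood apart. These shares therefore do not give the power of the comparison in the real libraries. Intervals on counts were not used because the values are scaled estimates.

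Seed matches were read in the longest 3′ UTR of each protein coding gene in GENCODE 29, with 8mer or 7mer-m8 taken as a match. Genes were named by rule: the 12 largest rises and falls past the threshold with no overlap between mimic and inhibitor libraries and a mean signal of 20 or more in 1 of them, up to 4 members by p of each of 30 gene lists, the tabulated skeletal genes, up to 12 lower genes with a match, and up to 6 genes whose overlapping controls lay between. Other list members named beside them were chosen after their values were seen. Members, lists and tests were chosen with earlier results of these data known. The values of some genes that the rule or the lists held are not reported here. Among tested identifiers, 676 share all 12 values with another.

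Alternatives were pseudocounts of 1 and 5, no filter, a mean of at least 20, median-ratio and quantile rescaling, the 6 libraries alone, array weights, a replicate block and each library left out. Centring in GC bins and counting identical identifiers once were added after seeing the data. Replicate numbers were not treated as pairs.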

Additional observations from a re-analysis of the deposited data

Results flagged for a closer look

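For 20 of the genes named by rule the difference between mimic and inhibitor was itself different from the difference between their controls. This was by limma's test of that difference with Benjamini-Hochberg adjustment over all tested genes, of which 140 (0.85%) passed. Apart from the skeletal genes, the rule picked genes by size or p of mimic minus inhibitor, a part of the tested difference. The count of 20 is favoured by that choice. The difference was positive, so that mimic stood higher over inhibitor than the controls did, for GPC6 (log2 2.43, adjusted p = 8.43e-05), OVCH2 (log2 2.36, adjusted p = 0.0478), B4GALT1 (log2 2.05, adjusted p = 6.00e-07), PI15 (log2 1.96, adjusted p = 0.0393), DIP2C (log2 1.39, adjusted p = 0.000155), POGLUT3 (log2 1.35, adjusted p = 0.00543) and THBS2 (log2 1.21, adjusted p = 0.00421). Smaller positive values were found for KCNJ6 (log2 1.08, adjusted p = 0.0245), CEMIP (log2 1.03, adjusted p = 0.0336), SMYD3 (log2 0.95, adjusted p = 0.0148), PSAT1 (log2 0.90, adjusted p = 0.0147), HK2 (log2 0.80, adjusted p = 0.0295), WLS (log2 0.77, adjusted p = 0.0185), FGFR2 (log2 0.64, adjusted p = 0.0416) and TNC (log2 0.45, adjusted p = 0.0416). It was negative for PPL (log2 -3.09, adjusted p = 0.0230), FBP1 (log2 -2.77, adjusted p = 0.0431), BMP8A (log2 -2.55, adjusted p = 0.00873), KRT75 (log2 -1.84, adjusted p = 0.000644) and GNB5 (log2 -0.58, adjusted p = 0.0483). For B4GALT1 and POGLUT3 the larger difference was the one between the controls: POGLUT3 had log2 0.25, adjusted p = 0.209 between mimic and inhibitor, and log2 -1.10, adjusted p = 0.000790 between mimic control and inhibitor control. In the other 18 of these 20 the mimic and inhibitor libraries carried the larger of the 2 differences. Genes named outside the rule passed this test too. HYOU1 (log2 1.57, adjusted p = 0.000155), PDIA6 (log2 1.38, adjusted p = 0.000155), TNS3 (adjusted p = 0.0146), BTG1 (adjusted p = 0.0107) and TGFBI (adjusted p = 0.0194) had the larger difference between the controls. COLEC12 (adjusted p = 0.00780) and PRR11 (adjusted p = 0.0147) had it between mimic and inhibitor.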

How the results depend on the processing

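The number of genes called between mimic and inhibitor (2195) was 400 with the 6 libraries alone and 5362 with array weights, whose fit stopped before full convergence, and 727 (without inhibitor replicate 1) to 5200 (without mimic replicate 3) with 1 library left out. With the replicate number as a block it was 1694. Between the controls (1667) it was 962 without the filter, 3913 with 6 libraries, 4623 with array weights, 1017 with the replicate block and 271 (without inhibitor control replicate 1) to 3757 (without mimic replicate 3) with 1 library left out. The difference of the differences (140) gave 76 without the filter, 624 with array weights, 74 with the replicate block, 349 after GC centring and 37 (without inhibitor replicate 1 or mimic control replicate 1) to 515 (without mimic replicate 3) with 1 library left out. The cause was not tested. FGF18 with its 6 libraries alone stood at -3.06 (adjusted p = 0.0569), where fits with 1 library left out gave -3.53 to -2.23. The median of genes with a seed match (0.07) was 0.019 after GC centring and -0.23, -0.12, 0.018 and 0.16 in the 4 quartiles of 3′ UTR length. Of 114 genes that the naming rule took past the threshold, 75 were called whichever library was left out, 54 lost the call with the 6 libraries alone, 19 without the filter, 13 with the block and 14 after GC centring, and no direction changed in these fits. Same-numbered mimic and inhibitor libraries correlated at -0.078, -0.063 and -0.18 in their deviations, so the numbers were not taken as pairs. Under quantile normalisation 51.0% of called genes were higher with the mimic, against 57.4%. Depth limits low genes most: between mimic and inhibitor, genes near the filter value of 5 have few reads per library.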

Other observations

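Of the genes called between mimic and inhibitor, 17 identifiers were called in the opposite direction between mimic control and inhibitor control, and these were examined after their values were seen. GPC6, CEMIP, B4GALT1, PDIA6 and HYOU1 are among those described above. COLEC12, a scavenger receptor of the collectin family, averaged 807 with the mimic and 519 with the inhibitor, where the controls averaged 809 in the mimic control and 1079 in the inhibitor control (log2 0.63, adjusted p = 0.00342; controls log2 -0.42, adjusted p = 0.0284). TGFBI, a matrix protein induced by TGF-beta, was lower with the mimic, at 188 with the mimic and 259 with the inhibitor, beside 179 in the mimic control and 118 in the inhibitor control (log2 -0.46, adjusted p = 0.0309; controls log2 0.60, adjusted p = 0.0156). BTG1, an antiproliferative factor, was the other one lower with the mimic, at 598 with the mimic and 773 with the inhibitor, beside 818 in the mimic control and 591 in the inhibitor control (log2 -0.37, adjusted p = 0.0185; controls log2 0.47, adjusted p = 0.0112). Among the 15 higher ones were also PRR11, a cell cycle gene (log2 0.94, adjusted p = 0.0132; controls log2 -0.91, adjusted p = 0.0213), and TNS3, a focal adhesion protein (log2 0.35, adjusted p = 0.0166; controls log2 -0.38, adjusted p = 0.0176). With 1 library left out at a time, 3 of the 17 identifiers, that of GPC6 and both of HYOU1, kept both calls in all 12 fits. COLEC12 and PRR11 lost the control call in 5 of the fits each (adjusted p up to 0.119 and 0.0805, among them without inhibitor control replicate 1 or 2) and kept the call between mimic and inhibitor. TGFBI lost the call between mimic and inhibitor without mimic replicate 2 or inhibitor replicate 1 or 3 (adjusted p up to 0.119) and the control call without mimic control replicate 1 or inhibitor control replicate 2 (up to 0.0616). BTG1 lost the call between mimic and inhibitor without mimic replicate 2 or inhibitor replicate 1 (up to 0.0862) and the control call without inhibitor control replicate 1 (up to 0.0527). TNS3 lost them in 3 and 4 of the fits (up to 0.0790 and 0.0801).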
